A study of Mus musculus with 6 samples.

Results

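The 9 genes described here encode the factors that switch proteasome genes on in a cell short of proteasome activity, together with their partners, their inhibitors and the enzymes that release them. They were chosen by name from knowledge of the pathway, with earlier results of these data known. Nfe2l1 and Nfe2l2 encode the activators NRF1 and NRF2, and Mafg, Mafk and Maff encode the small Maf partners. Keap1 and Bach1 encode opposing proteins, and Ngly1 and Ddi2 encode the enzymes that process NRF1. Of the 18563 genes named on the array, 8 were members, since no probe carried the name of Ddi2, and 6 of these could be tested among 14732 tested genes. Keap1 had a probe, but its spot was masked by the scanner software on all 6 arrays, as were 86 probes in all, so no value is given for it. Maff was not above background on any array.

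Muscle RNA was hybridised to CodeLink mouse whole-genome arrays, which carry 1 dye, with 1 array per mouse. The 3 Rpt3-/- mice (labelled Rpt3 null) and the 3 Rpt3+/+ mice (labelled control) were all females aged 6 weeks. Rpt3, whose gene symbol is Psmc4, encodes an ATPase of the 19S cap of the proteasome. Its floxed gene was removed in Rpt3-/- mice by Cre driven from the Mlc1f promoter, which is active in fast-twitch fibers, so that the deletion was aimed at those fibers. Its extent in other fibers and cells is not known from the arrays. The labels give both groups the strain mlc1f-Cre/ Rpt3-floxed and the tibialis anterior, whereas the study's methods give the controls as wild type for Rpt3 with the same Cre, and name the gastrocnemius.

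NRF1 is made at the endoplasmic reticulum membrane, drawn out of it by the ATPase p97 and normally destroyed by the proteasome. When the proteasome is slowed, NRF1 escapes, is stripped of its sugar chains by NGLY1, is cut by the protease DDI2 and enters the nucleus to switch on proteasome genes. NRF2 is held back by KEAP1, which passes it to a ubiquitin ligase, and is freed by oxidative or electrophilic stress. Both factors bind antioxidant response elements as a pair with a small Maf protein, and BACH1 competes for the same elements. Much of this control acts on proteins, which the arrays did not measure.

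The targeted gene was checked first. Psmc4 had log2 intensities of 10.01, 9.78 and 9.85 in Rpt3-/- muscle, against 11.16, 10.91 and 11.06 in Rpt3+/+ muscle. It was thus 2.24-fold lower in Rpt3-/- muscle (adjusted p = 0.000309 from limma) with no overlap between the groups. All 12 fast fiber markers were above background on all 6 arrays, as in skeletal muscle, which does not settle which of the named muscles was used. Between 69.2% and 72.7% of probes were above background on Rpt3-/- arrays and between 57.0% and 74.5% on Rpt3+/+ arrays, with the second Rpt3+/+ array the dimmest. Markers of other cells moved with genotype. The summed intensity of 15 macrophage markers was 8950 to 13100 in Rpt3-/- muscle and 3510 to 4080 in Rpt3+/+ muscle, and 11 of the 15 were higher. Adgre1, Itgam and Ptprc, also on the macrophage list, were not above background on enough arrays to be tested. The sum of 9 slow fiber markers was 25700 to 27400 in Rpt3-/- muscle and 17400 to 21700 in Rpt3+/+ muscle, and that of 12 fast fiber markers was 210000 to 220000 in Rpt3-/- muscle and 237000 to 252000 in Rpt3+/+ muscle. Of these, 6 slow fiber markers were higher, and 1 fast fiber marker was higher and 3 were lower. The brightest genes weigh most in such a sum, and Atp2a1, Ckm and Tnnc2 each reached the same 14.86 on the log2 scale. Quantile normalization gives all arrays the same distribution, so a value at that level reflects the gene's rank on its array. How far the intensities behind such values differed was not tested. A dimmer probe of the fast fiber marker Myh4, named after its value was seen, stood at -1.79 (adjusted p = 0.000299 over all probes from limma). The probe of Myh4 used here stood at -0.258. Of 12 fibroblast markers 3 were higher, and none of 9 endothelial or 4 red blood cell markers was called. Over all tested genes 12.7% were higher and 6.56% lower. With arrays centred on Actb, a gene described below, in place of quantile normalization, 329 of 14732 tested genes were higher and 10327 lower. By that measure 9 macrophage markers were higher and 3 lower, and 4 slow fiber markers were higher and 1 lower. Of fibroblast markers 1 was higher and 2 were lower. In the remaining lists 11 fast fiber, 8 endothelial and 4 red blood cell markers were lower and none was higher. In whole muscle, a smaller number of cells of a type and less RNA in each of them cannot be told apart.

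The promoters are shown before the values, because the element that NRF1 and NRF2 bind with a small Maf is a short sequence that can be looked for in them. The core of the antioxidant response element, TGACNNNGC, was searched on both strands in RefSeq windows of the GRCm38.p6 assembly that run from 250 bases before to 50 bases after each gene's start. It shares its first letters with the AP-1 site TGANTCA and the CREB site TGACGTCA, so a match may belong to either. The core was in 14.0% of all 27025 genes with a window. It was in 4 of the 9 members, namely Nfe2l2, Mafg, Mafk and Maff, the last in 1 of its 3 windows. Counted by window, it was in 4 of the members' 15 windows (26.7%), against 12.4% of all 32851 windows. It was not in the 5 windows of Nfe2l1 or in those of Keap1, Bach1, Ngly1 and Ddi2. The 250 bases before the start of Mafk, which was higher in Rpt3-/- muscle, of Nfe2l2 and of the outermost start of Nfe2l1 read 5′ to 3′ on the strand of the gene as follows, with matches in capitals.
Mafk (chr5:139791286-139791535, + strand): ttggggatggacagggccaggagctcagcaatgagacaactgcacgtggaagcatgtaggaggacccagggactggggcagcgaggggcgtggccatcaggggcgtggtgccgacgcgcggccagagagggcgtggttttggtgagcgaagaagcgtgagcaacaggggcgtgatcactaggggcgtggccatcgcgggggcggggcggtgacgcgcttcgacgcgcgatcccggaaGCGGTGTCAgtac
Nfe2l2 (chr2:75704664-75704913, - strand): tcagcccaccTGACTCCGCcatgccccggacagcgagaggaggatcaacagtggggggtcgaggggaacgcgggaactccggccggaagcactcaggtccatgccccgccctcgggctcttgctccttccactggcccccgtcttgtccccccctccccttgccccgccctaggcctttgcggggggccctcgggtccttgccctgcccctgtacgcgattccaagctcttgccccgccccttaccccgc
Nfe2l1 (chr11:96829969-96830218, - strand): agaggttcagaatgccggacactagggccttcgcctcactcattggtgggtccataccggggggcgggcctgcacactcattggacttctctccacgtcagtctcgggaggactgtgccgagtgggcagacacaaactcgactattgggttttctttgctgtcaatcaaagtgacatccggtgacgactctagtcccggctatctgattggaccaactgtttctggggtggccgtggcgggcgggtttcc
For Mafg, also higher in Rpt3-/- muscle, the window lies within the span of its own gene, and only the match and its flanks are shown.
Mafg (from chr11:120633548-120633797, - strand): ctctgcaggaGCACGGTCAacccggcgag
Counted from the start, the match of Mafk begins at -13 and that of Mafg at -222, both on the opposite strand, and that of Nfe2l2 begins at -240 on the strand of the gene.

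Of the 6 members tested, 3 were higher in Rpt3-/- muscle, none was lower and 3 did not pass an adjusted p of 0.05 from limma. Among all tested genes 12.7% were higher and 6.56% were lower. The 3 were Mafg, Mafk and Bach1, so that no called member was an activator. Bach1 was counted by the brighter of its probes, which was brighter mainly on Rpt3-/- arrays, as given below. The same 3 had all Rpt3-/- arrays above all Rpt3+/+ arrays, as did 21.2% of all tested genes. The median log2 fold change was 0.23 over the 6 members and -0.013 over all tested genes.

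**Figure D1:**
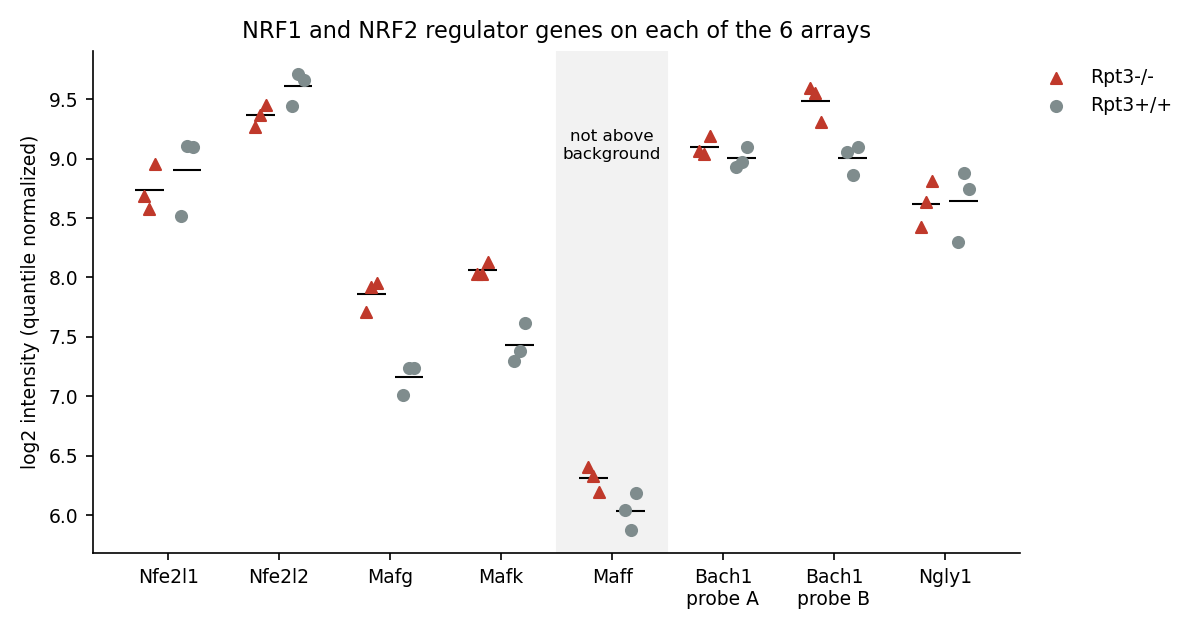
Log2 intensity (y axis) of each member probe on each of the 6 arrays, with Rpt3-/- arrays at the left and Rpt3+/+ arrays at the right of each gene; points are arrays and bars are group means. Mafg, Mafk and Bach1 probe B have groups that do not overlap, Nfe2l1, Nfe2l2, Bach1 probe A and Ngly1 overlap, and Maff was not above background.

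Nfe2l1, which encodes the activator NRF1, was not called. Its log2 intensities were 8.68, 8.57 and 8.96 in Rpt3-/- muscle, against 8.52, 9.10 and 9.10 in Rpt3+/+ muscle. The groups overlapped, because the first Rpt3+/+ array was the lowest of the 6 and the remaining Rpt3+/+ arrays were the highest. The log2 fold change was -0.17 (SE 0.18, n = 3 each, adjusted p = 0.584 from limma), with a 95% interval of -0.58 to 0.24. As a ratio the interval ran from 0.670 to 1.18, so that moderate changes in either direction lay within it.

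Nfe2l2, which encodes NRF2, had log2 intensities of 9.27, 9.37 and 9.45 in Rpt3-/- muscle, against 9.44, 9.72 and 9.66 in Rpt3+/+ muscle. The groups met at a single point, where the third Rpt3-/- array stood just above the first Rpt3+/+ array. The log2 fold change was -0.24 (SE 0.13, n = 3 each, adjusted p = 0.238 from limma) and its 95% interval was -0.54 to 0.05. In this fit the interval of the ratio to the Rpt3+/+ level ran from 0.690 to 1.03. Median centring in place of quantile normalization moved the log2 fold change to -0.054 (SE 0.138). Without the first Rpt3+/+ array the log2 fold change was -0.36 for Nfe2l1 and -0.33 for Nfe2l2, and neither was called.

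Mafg encodes the small Maf that is a common partner of NRF1 and NRF2. Its log2 intensities were 7.71, 7.92 and 7.95 in Rpt3-/- muscle, against 7.01, 7.24 and 7.24 in Rpt3+/+ muscle. Each Rpt3-/- array exceeded each Rpt3+/+ array, and the nearest pair lay further apart than either group's SD. Mafg was 1.62-fold higher in Rpt3-/- muscle (log2 fold change 0.70, SE 0.13, 95% interval 0.40 to 0.99, n = 3 each, adjusted p = 0.00537 from limma), a direction that reversed when arrays were centred on Actb (-0.033).

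Mafk, which encodes another small Maf, had log2 intensities of 8.03, 8.03 and 8.13 in Rpt3-/- muscle, against 7.30, 7.38 and 7.62 in Rpt3+/+ muscle. The Rpt3-/- arrays lay close together and all stood above the highest Rpt3+/+ array. Mafk was 1.55-fold higher (log2 fold change 0.63, SE 0.13, 95% interval 0.34 to 0.92, n = 3 each, adjusted p = 0.00824 from limma), and centring on Actb turned this to -0.090. The spot on the first Rpt3+/+ array was irregular in shape, and leaving out irregular spots gave 0.56, still called.

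Maff, the third small Maf, is known as an immediate response gene. Its log2 intensities were 6.41, 6.33 and 6.19 in Rpt3-/- muscle, against 6.04, 5.87 and 6.19 in Rpt3+/+ muscle, and no spot was above background. No fold is given for it.

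Actb, which encodes β-actin and was used for the centring above, was itself higher in Rpt3-/- muscle. Its log2 intensities were 13.15, 12.95 and 13.11 in Rpt3-/- muscle, against 12.70, 12.61 and 12.56 in Rpt3+/+ muscle (log2 fold change 0.45, adjusted p = 0.0294 from limma). Centring on Actb took the place of quantile normalization, so its shift need not equal the 0.45 given here. It moved the median of all tested genes to -0.717, with 329 of 14732 genes higher and 10327 lower. Relative to that median, Mafg stood at 0.68, Mafk at 0.63 and Bach1 at 0.60, and Nfe2l1 at -0.08, Nfe2l2 at -0.11 and Ngly1 at 0.04. Centring on Actb differs from median centring only by a constant on each array. These relative values therefore restate the median-centred fit and add no separate support.

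Bach1, which encodes a repressor of genes of heme and iron handling, was measured by a pair of probes that disagreed. Probe B, the brighter one, had log2 intensities of 9.59, 9.55 and 9.31 in Rpt3-/- muscle, against 9.05, 8.86 and 9.10 in Rpt3+/+ muscle. Here the groups did not overlap, and the log2 fold change was 0.48 (SE 0.14, 95% interval 0.18 to 0.78, n = 3 each, adjusted p = 0.0328 from limma). Probe A had log2 intensities of 9.06, 9.04 and 9.19 in Rpt3-/- muscle, against 8.93, 8.98 and 9.10 in Rpt3+/+ muscle. These values overlapped, and the log2 fold change was 0.09 (SE 0.12, 95% interval -0.18 to 0.37, adjusted p = 0.66 over all probes from limma). In Rpt3+/+ muscle the probes had nearly the same mean (9.006 for B and 9.002 for A), against 9.485 and 9.096 in Rpt3-/- muscle. Probe B thus stood for the gene as the brighter mainly through the Rpt3-/- arrays. Its call is not independent of that choice. The change of probe B exceeded that of probe A by 0.39 on the log2 scale. This difference was chosen for the disagreement seen, so no test is given. The call of Bach1 was lost when Rpt3-/- array 1 or 2, or Rpt3+/+ array 2 or 3, was left out (log2 fold changes between 0.41 and 0.53), and turned to -0.12 with centring on Actb.

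Ngly1 encodes the cytosolic glycanase that strips sugar chains from NRF1. Its log2 intensities were 8.42, 8.63 and 8.81 in Rpt3-/- muscle, against 8.30, 8.88 and 8.74 in Rpt3+/+ muscle. The groups were interleaved. The log2 fold change was -0.02 (SE 0.18, n = 3 each, adjusted p = 0.952 from limma), with a ratio between 0.753 and 1.29 in the 95% interval.

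**Figure D2:**
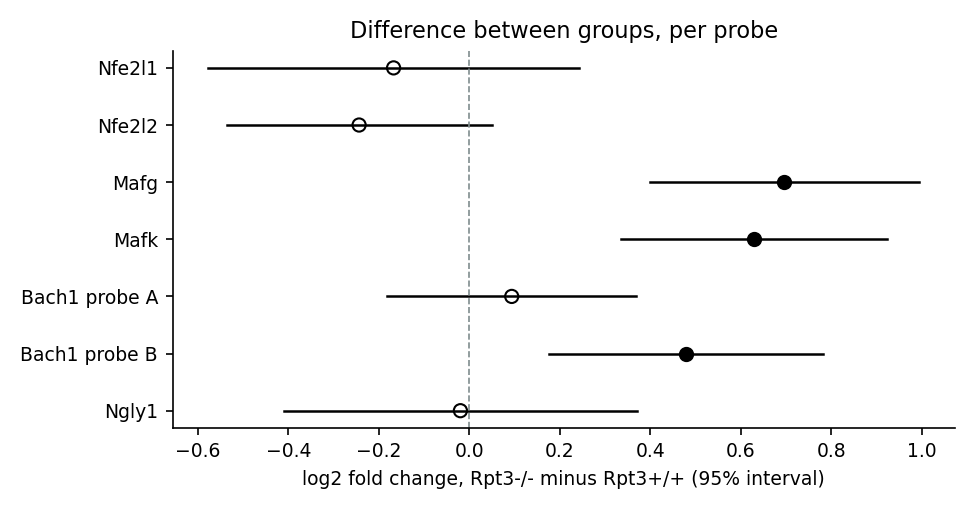
Log2 fold change of Rpt3-/- over Rpt3+/+ muscle (x axis) for each member probe tested, with 95% intervals from limma (lines, n = 3 arrays a group); filled circles passed an adjusted p of 0.05 and open circles did not. The intervals of Mafg, Mafk and Bach1 probe B lie above 0 and those of Nfe2l1, Nfe2l2, Bach1 probe A and Ngly1 include 0; with arrays centred on Actb Mafg, Mafk and Bach1 turned to values just below 0.

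The partners were set against the activators on the same arrays. The difference of log2 intensity between Mafg and Nfe2l1 was 0.86 greater in Rpt3-/- than in Rpt3+/+ muscle, and that between Mafg and Nfe2l2 was 0.94 greater. With Mafk in place of Mafg, the shifts were 0.80 against Nfe2l1 and 0.87 against Nfe2l2. Such a difference within an array does not depend on a shift common to the whole array. In all 4 the Rpt3-/- arrays lay above the Rpt3+/+ arrays. The pairs set called genes against genes not called, and no test is given for them.

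The profiles most like those of the activators over the 6 arrays are given as a description, in which both genotypes are mixed. Ppp2cb, which encodes a catalytic subunit of protein phosphatase 2A, had a Pearson r of 0.983 with Nfe2l1, followed by Dus3l, which encodes a tRNA dihydrouridine synthase (0.982), and Cyb5r4, which encodes a cytochrome b5 reductase (0.981). For Nfe2l2 the most alike were Tspyl1 (0.997), Pdha1, which encodes a subunit of pyruvate dehydrogenase (0.997), and Ncor1, which encodes a nuclear corepressor (0.996). Pdha1 was called (log2 fold change -0.89, adjusted p = 0.0253 from limma) and the other 5 genes were not.

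Genes that act on NRF1 came next in the pathway. Of 15 tested genes that extract NRF1 from the membrane, modify it or mark it for destruction, 4 were higher in Rpt3-/- muscle, none was lower and 11 were not called, with a median log2 fold change of 0.13. The shares over all tested genes were 12.7% higher and 6.56% lower. With arrays centred on Actb 1 was higher and 7 were lower, beside 329 higher and 10327 lower of all 14732 tested genes. Vcp, which encodes the ATPase p97, had log2 intensities of 12.09, 12.01 and 11.97 in Rpt3-/- muscle, against 11.45, 11.35 and 11.22 in Rpt3+/+ muscle. It was thus 1.60-fold higher, without overlap (adjusted p = 0.00436 from limma), and its log2 fold change was 0.22 and not called after centring on Actb. Nploc4, which encodes a cofactor of p97, had 10.92, 11.12 and 10.92 in Rpt3-/- muscle, against 9.96, 9.75 and 9.73 in Rpt3+/+ muscle. This 2.26-fold rise (adjusted p = 0.000288 from limma) was the largest of the list and was called in all 18 alternatives. Ufd1, which encodes its partner in that cofactor, was 1.61-fold higher (adjusted p = 0.0185 from limma), and Sel1l, which encodes a subunit of the HRD1 ligase complex, 1.55-fold (adjusted p = 0.0497 from limma). Syvn1, which encodes HRD1 itself, stood at 0.13 on the log2 scale (adjusted p = 0.632 from limma) and Derl1, which encodes a membrane protein of the same pathway, at 0.059 (adjusted p = 0.869 from limma), both named after their values were seen. Ufd1 lost its call when Rpt3-/- array 2 or 3, or Rpt3+/+ array 3, was left out (log2 fold changes from 0.57 to 0.84 over the arrays left out), and Sel1l without any 1 array but the second Rpt3+/+ (0.40 to 0.80).

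Of 16 tested genes that act on NRF2, 4 were higher in Rpt3-/- muscle, 3 were lower and 9 were not called. Over all tested genes the shares were again 12.7% higher and 6.56% lower. After centring on Actb 1 was higher and 10 were lower, beside 329 higher and 10327 lower of all 14732 tested genes. Cdkn1a, which encodes p21, a cell cycle inhibitor that can bind NRF2, had log2 intensities of 10.51, 9.60 and 10.25 in Rpt3-/- muscle, against 8.24, 8.28 and 8.08 in Rpt3+/+ muscle. It was 3.79-fold higher (adjusted p = 0.00026 from limma) and called in all 18 alternatives. Sqstm1 and Dpp3 both encode proteins that can bind KEAP1 in place of NRF2. Sqstm1, the gene of the autophagy receptor p62, was 1.65-fold higher (adjusted p = 0.0147 from limma) and Dpp3 1.63-fold (adjusted p = 0.0177 from limma). Neither passed when Rpt3-/- array 2 or 3, or Rpt3+/+ array 3, was left out. Palb2, whose product can also bind KEAP1, had log2 intensities of 11.13, 11.32 and 11.40 in Rpt3-/- muscle, against 12.03, 11.98 and 12.11 in Rpt3+/+ muscle. It was 1.69-fold lower (log2 fold change -0.76, adjusted p = 0.00281 from limma) and called in all 18 alternatives, at -0.46 with median centring and -1.22 with centring on Actb.

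Among the relatives of the members, the other cap-n-collar and Maf genes, none of 5 tested genes was higher and 2 were lower, or 4 with centring on Actb. Over all tested genes 6.56% were lower, or 10327 of 14732 with centring on Actb. Maf, which encodes a large Maf transcription factor, had log2 intensities of 10.03, 9.25 and 9.53 in Rpt3-/- muscle, against 10.40, 10.91 and 10.67 in Rpt3+/+ muscle, and was 2.08-fold lower (adjusted p = 0.00584 from limma). A further probe of Maf stood at -0.13 on the log2 scale (adjusted p = 0.517 over all probes from limma). The means of these probes over all arrays were close, at 10.13 for the counted probe and 10.09 for the further probe. The counted probe averaged 10.66 in Rpt3+/+ muscle and 9.60 in Rpt3-/- muscle. It thus stood for Maf as the brighter through the Rpt3+/+ arrays. The call of Maf, counted among the 2 lower genes, is not independent of that choice. Mafa, which encodes a large Maf known from pancreatic beta cells, stood at -0.77 on the log2 scale (adjusted p = 0.041 in the limma fit), or -1.74 in the authors' value table, but was above background on 2 of the 3 Rpt3-/- arrays, and its call was lost with any 1 array left out other than the first Rpt3+/+.

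Genes of the proteasome, which NRF1 is known to switch on, were described next. Whether NRF1 acted on them here was not tested. Of 42 tested genes, Rpt3 itself not counted, 33 were higher in Rpt3-/- muscle, none was lower and 9 were not called, with a median ratio of 1.66. Over all tested genes 12.7% were higher. After centring on Actb 12 were higher and 2 were lower, and without the third Rpt3-/- array 21 were higher. That centring left 329 of all 14732 tested genes higher and 10327 lower. The 20S core accounted for 12 of 13 tested genes, the 19S cap for 15 of 18, and assembly factors and activators for 6 of 11. Psma7, which encodes a ring subunit of the core, had log2 intensities of 11.70, 11.86 and 11.79 in Rpt3-/- muscle, against 10.28, 10.18 and 10.07 in Rpt3+/+ muscle. It was 3.04-fold higher (adjusted p = 4.15e-05 from limma). Psma5 was 2.67-fold higher, Psmb4 2.56-fold and Psmb5, which encodes the chymotrypsin-like subunit, 2.48-fold. In the cap, Psmd4, which encodes a ubiquitin receptor, was 2.41-fold higher, Psmd3 2.31-fold, Psmd11 2.24-fold and Psmc5, an ATPase like Rpt3, 2.08-fold. A dimmer probe of Psmd11 stood at -0.019 on the log2 scale. Pomp, which encodes the proteasome maturation protein, was 2.58-fold higher, the assembly chaperone gene Psmd5 2.20-fold, the deubiquitylase gene Usp14 2.03-fold and the assembly chaperone gene Psmg3 1.78-fold, and Usp14 was not called without the third Rpt3-/- array.

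**Figure D3:**
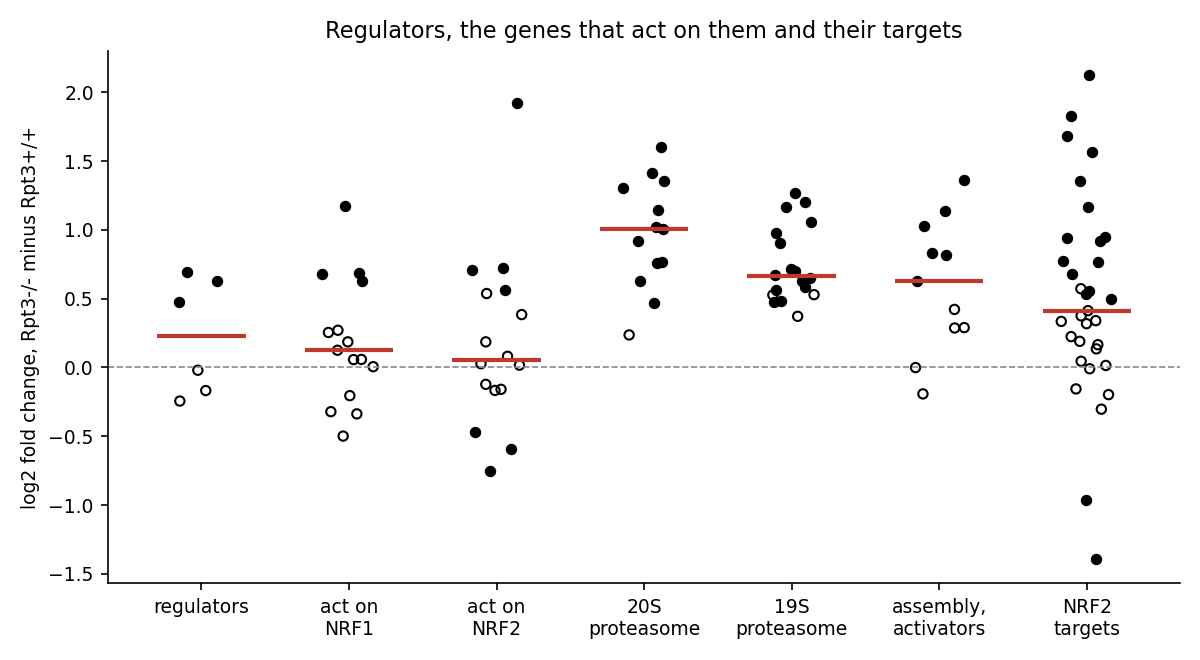
Log2 fold change of Rpt3-/- over Rpt3+/+ muscle (y axis) of each tested gene of the members and of the groups of related genes (x axis); filled points passed an adjusted p of 0.05 from limma, open points did not, red lines are medians, and sideways scatter is only for display. Rpt3 itself, which was lower as given above, is not drawn. All other tested genes of the 20S core and of the 19S cap lie above 0, with medians of 1.01 and 0.66. The members spread around a median of 0.23. Centring on Actb, not drawn here, moved the median of the 42 proteasome genes to 0.177 and that of the NRF2 targets to -0.163.

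Known NRF2 targets were more divided. Of 33 tested genes, 15 were higher in Rpt3-/- muscle, 2 were lower and 16 were not called, with a median log2 fold change of 0.41, whereas centring on Actb gave 6 higher and 11 lower. Over all tested genes 12.7% were higher and 6.56% lower, and that centring gave 329 higher and 10327 lower of 14732. Hmox1, which encodes heme oxygenase and is also a target of repression by BACH1, had log2 intensities of 9.26, 9.32 and 9.52 in Rpt3-/- muscle, against 7.50, 7.86 and 7.70 in Rpt3+/+ muscle. It was 3.21-fold higher (adjusted p = 6.02e-05 from limma). Gclm, the modifier subunit of the enzyme that starts glutathione synthesis, was 2.96-fold higher (adjusted p = 0.000152 from limma), Gstm2, a glutathione transferase, 3.56-fold (adjusted p = 1.85e-05 from limma) and Mt1, a metallothionein, 4.37-fold (adjusted p = 0.00042 from limma). These 4 genes were called in all 18 alternatives. The 2 lower genes, named after their values were seen, were Gpx2 and Me1. Their log2 fold changes were -1.39 (adjusted p = 0.000219 from limma) and -0.97 (adjusted p = 0.000911 from limma). Both were also called in all 18 alternatives. Nqo1, the quinone reductase most often used as a readout of NRF2, stood at -0.30 on the log2 scale (adjusted p = 0.193 from limma), and Txnrd1, a thioredoxin reductase, at -0.20 (adjusted p = 0.559 from limma). They are named here after their values were seen. Several of these genes are also active in macrophages, whose markers moved with genotype as given above, and the part of macrophages in these results was not tested.

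The next 2 lists stand beside 12.7% of all tested genes higher and 6.56% lower. With centring on Actb they stand beside 329 higher and 10327 lower of 14732. Of 10 tested genes that BACH1 is known to repress, 6 were higher in Rpt3-/- muscle, 1 was lower and 3 were not called, whereas centring on Actb gave 2 higher and 4 lower. All that were higher but Slc48a1, which encodes a heme transporter (log2 fold change 0.82, adjusted p = 0.00171 from limma), are also on the list of NRF2 targets and were counted there. Of these, Blvrb, which encodes a biliverdin reductase, had log2 intensities of 10.47, 9.95 and 10.07 in Rpt3-/- muscle, against 9.18, 9.20 and 9.28 in Rpt3+/+ muscle. It was 1.93-fold higher (adjusted p = 0.00224 from limma), and its call was lost with centring on Actb. Slc40a1, which encodes the iron exporter ferroportin, had 6.36, 6.46 and 6.56 in Rpt3-/- muscle, against 6.90, 8.13 and 7.72 in Rpt3+/+ muscle. Its log2 fold change was -1.13 (adjusted p = 0.0129 from limma), or -1.96 in the authors' value table. It was above background on 2 of the 3 Rpt3-/- arrays and was not called without the first Rpt3-/- or the third Rpt3+/+ array. As Maff is known as an immediate early gene, 17 other tested genes of that kind were also read. Ier3 was 4.01-fold higher (adjusted p = 3.23e-05 from limma) and Atf3 1.75-fold higher (adjusted p = 0.00219 from limma), Nr4a1 was 2.23-fold lower (adjusted p = 0.0132 from limma), and 14 were not called. Centring on Actb left Ier3 as the 1 gene higher and gave 8 lower, with Atf3 at 0.081 and not called.

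The promoter core was then counted in the proteasome genes, the NRF2 targets and the genes that act on NRF1. It was in 9 of 37 proteasome genes with a window (24.3%), in 12 of 37 NRF2 targets (32.4%) and in 1 of 14 genes that act on NRF1 (7.14%), against 14.0% of all genes. Of proteasome genes with a window, it was in 5 of 26 that were higher in Rpt3-/- muscle (19.2%) and in 3 of 8 that were tested and not called (37.5%). The 250 bases before the start are shown for 4 genes that were higher in Rpt3-/- muscle and hold the core there, the proteasome genes Psmb5 and Adrm1, the NRF2 target Sod1, which encodes a superoxide dismutase, and Vcp.
Psmb5 (chr14:54617996-54618245, - strand): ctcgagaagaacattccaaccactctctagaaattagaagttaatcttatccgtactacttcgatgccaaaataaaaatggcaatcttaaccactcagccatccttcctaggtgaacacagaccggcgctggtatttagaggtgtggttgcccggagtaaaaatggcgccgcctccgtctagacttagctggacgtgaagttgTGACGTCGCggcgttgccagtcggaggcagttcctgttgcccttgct
Adrm1 (chr2:180171338-180171587, + strand): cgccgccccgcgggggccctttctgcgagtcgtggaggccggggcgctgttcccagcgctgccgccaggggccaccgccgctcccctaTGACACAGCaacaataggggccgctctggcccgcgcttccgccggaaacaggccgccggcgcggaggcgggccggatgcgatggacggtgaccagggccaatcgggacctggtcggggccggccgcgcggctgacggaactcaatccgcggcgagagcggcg
Sod1 (chr16:90220512-90220761, + strand): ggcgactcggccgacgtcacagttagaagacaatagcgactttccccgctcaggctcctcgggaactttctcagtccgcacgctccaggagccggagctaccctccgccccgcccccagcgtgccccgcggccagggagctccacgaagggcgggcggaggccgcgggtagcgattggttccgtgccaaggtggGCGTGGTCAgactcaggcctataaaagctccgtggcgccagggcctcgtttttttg
Vcp (chr4:43000508-43000757, - strand): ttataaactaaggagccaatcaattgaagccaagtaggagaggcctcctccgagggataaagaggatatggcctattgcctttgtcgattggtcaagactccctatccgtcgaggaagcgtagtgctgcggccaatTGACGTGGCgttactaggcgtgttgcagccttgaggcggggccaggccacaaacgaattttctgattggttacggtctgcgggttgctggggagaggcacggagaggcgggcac
Psmb6, Psmc6 and Gclm, also higher, hold the core in a window that lies within the span of their own gene, and only the match and its flanks are shown.
Psmb6 (from chr11:70525107-70525356, + strand): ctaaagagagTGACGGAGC
Psmc6 (from chr14:45329574-45329823, + strand): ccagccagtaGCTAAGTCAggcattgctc
Gclm (from chr3:122245307-122245556, + strand): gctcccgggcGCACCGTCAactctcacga
The matches in Psmb5 and Vcp also hold the first letters of the CREB site, and the match in Nfe2l2 shown above holds those of the AP-1 site. A match is a string of letters and not a measured binding site, and sites further from the start were not searched.

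The members were last compared under 18 alternative ways of processing. Mafg and Mafk were called in 17 of them, with log2 fold changes of 0.622 to 0.998 and 0.559 to 0.849 when centring on Actb is set aside. Bach1 was called in 7 of 18. Nfe2l1, Nfe2l2 and Ngly1 were called in 1 of 18, the centring on Actb, where all 3 were lower. In the other 17 alternatives Nfe2l1 ranged from -0.36 to -0.03 and Nfe2l2 from -0.33 to -0.05.

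**Figure D4:**
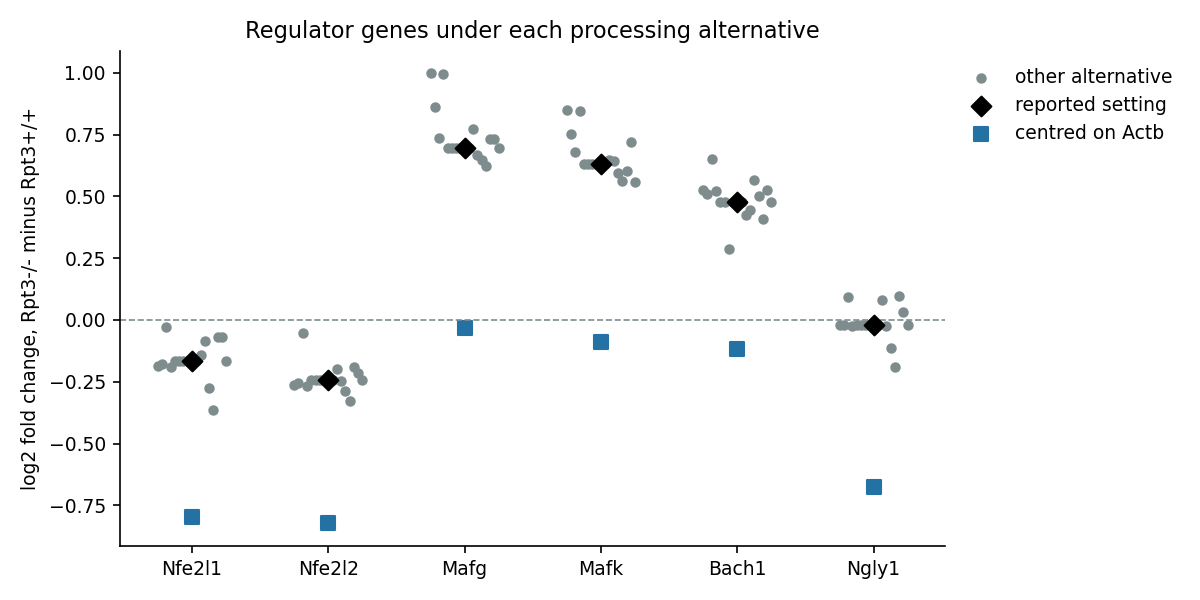
Log2 fold change of Rpt3-/- over Rpt3+/+ muscle (y axis) of each tested member (x axis) in the reported processing (black diamonds), with arrays centred on Actb (blue squares) and in the other alternatives (grey points), spread sideways for display. Mafg and Mafk stay above 0.5 except with arrays centred on Actb, where they turn to -0.033 and -0.090, and where Nfe2l1, Nfe2l2 and Ngly1 lie between -0.82 and -0.68.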

How the data were processed

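The authors scanned 6 single-dye arrays and deposited, for each spot, an intensity, the local background and a quality mark, as CodeLink Expression Analysis 5.0.0.31312 gave them, unnormalized between arrays. They also deposited a value table of intensities, and no source used here states how it was made. Its columns followed the background-subtracted intensities of their own arrays and shared a median of 89.0, so that they appear to be normalized between arrays, by a method that was not settled. This table served as an alternative. Of 34967 transcript probes, 21615 were named from the platform annotation and 536 through their RefSeq accession, whereas 681 with several symbols and 12135 absent from the annotation stayed unnamed. After background correction 1260 control spots were dropped, and masked or contaminated spots counted as missing.

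With limma 3.58.1 in R 4.3.3, background was corrected by normexp (offset 50), followed by quantile normalization, and lmFit and eBayes were run on log2 intensities for Rpt3-/- minus Rpt3+/+ arrays, with Benjamini-Hochberg adjustment over all tested genes. Tests were limited to genes with a probe above background on 3 or more arrays, the brightest probe standing for the gene. A gene was called at an adjusted p under 0.05. Files were read with Python 3.11.15, and the fit was tested on simulated data. The number of arrays limits the precision.

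The members and gene lists were chosen with earlier results of these data known. Named genes were every member with every probe, up to 4 called genes of largest change and the gene of lowest adjusted p in each list, Psmc4 and Actb as checks, and the 3 genes most alike to Nfe2l1 and to Nfe2l2. In the marker lists only counts and sums are given, apart from the probes of Myh4 and the brightest fast fiber values. Alternatives were other background corrections, normalizations, filters, probe rules and variance models, the value table, the methods' unpaired test, a replicate block, leaving out each array and, chosen after seeing the data, leaving out irregular spots. Each slide held 1 array, so that a slide block was not possible. No protein sequences were used here.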

Additional observations from a re-analysis of the deposited data

How the results depend on the processing

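Mafg and Mafk kept direction and call in 17 of 18 alternatives, with adjusted p of at most 0.04 and 0.0431. Centring on Actb gave -0.0327 for Mafg, -0.0903 for Mafk and -0.117 for Bach1, none called, and called Nfe2l1 (-0.798), Nfe2l2 (-0.822) and Ngly1 (-0.677), so that 0 members were higher and 3 lower. It was used in place of quantile normalization and moved the median of all genes to -0.717, and Actb itself was higher in Rpt3-/- muscle. Bach1 was not called with plain background subtraction (0.527), an offset of 16 (0.509), the value table (0.521), the mean of its probes (0.286) or the methods' test (0.479). Ngly1 changed sign with median centring (0.0913). Where no value above shows it, the cause was not tested.

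With 1 array left out, log2 fold changes ranged from -0.363 to -0.0694 for Nfe2l1, -0.326 to -0.19 for Nfe2l2, 0.622 to 0.772 for Mafg, 0.563 to 0.721 for Mafk, 0.409 to 0.566 for Bach1 and -0.19 to 0.0986 for Ngly1. Bach1 lost its call without Rpt3-/- array 1 or 2 or Rpt3+/+ array 2 or 3. Ngly1 changed sign without Rpt3-/- array 1 or Rpt3+/+ array 2 or 3. At an unadjusted p under 0.05, no member was lower in the reported processing, and Nfe2l1 and Nfe2l2 were without the first Rpt3+/+ array.

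Deviations of arrays with the same replicate number correlated at 0.126, -0.438 and 0.0976, so that the numbers were not taken to pair the mice. With the replicate block Bach1 was at 0.479 and not called (adjusted p = 0.0613 from limma), 2 members were higher, and counts over all genes were 1722 higher and 873 lower.

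Several counts moved by more than 1.5 times. All genes higher numbered 1870, against 329 with centring on Actb, 940 with the methods' test, 1155 without the third Rpt3-/- array and 1081 without the third Rpt3+/+ array. All genes lower numbered 967, against 600 with median centring, 10327 with centring on Actb, 427 with the methods' test, and 475, 543 and 388 without Rpt3-/- array 1, Rpt3-/- array 3 or Rpt3+/+ array 3. Proteasome genes higher numbered 33, against 12 with centring on Actb, 17 with the methods' test and 21 without the third Rpt3-/- array. NRF2 targets higher and lower numbered 15 and 2, against 6 and 11 with centring on Actb. Genes acting on NRF1 that were higher numbered 4, against 1 with centring on Actb and 2 with the methods' test or without Rpt3-/- array 2 or 3 or Rpt3+/+ array 3, and 2 were lower without the first Rpt3+/+ array. Genes acting on NRF2 that were higher numbered 4, against 1 or 2 with centring on Actb, the value table, the methods' test or without Rpt3-/- array 2 or 3 or Rpt3+/+ array 3. Those lower numbered 3, against 1 with median centring, the value table or without the third Rpt3+/+ array, and 10 with centring on Actb.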
